A study of Mus musculus with 6 samples.

Results

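Egr1, Egr2, Egr3, Nab2, Nr4a1, Nr4a2, Nr4a3, Ier2, Ier3 and Ier5 were followed in sorted CD4+CD8+ (DP) thymocytes of control and Paxbp1 cKO mice. These 10 genes were taken by their symbols from the deposited table of 22322 genes, and all 10 were found there. Of them, 9 passed the filter on low counts and were tested, while Egr3 was too low. RNA-Seq had been performed on 3 libraries from control mice, labelled WT (Paxbp1fl/fl), and 3 from Paxbp1 cKO mice, labelled Paxbp1fl/fl Lckcre. Both groups carried the floxed alleles, in which loxP sites flank exon 8, and neither was treated. The mice were 4 to 7 weeks old, of mixed sexes and on the C57BL/6 background, and the controls were littermates. Cre was driven in T-lineage cells by Lck sequences from an early stage of development. By their labels the controls carried no Cre, so an effect of the transgene itself cannot be told apart from that of the deletion. The labels do not say whether each library came from a separate mouse, and the p-values measure the spread between these libraries.

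All of these genes are switched on early after stimulation. In thymocytes the T cell receptor (TCR) sends ERK and calcium signals to transcription factors that the cell already holds, and most of these transcripts rise before new protein is made. Egr1, Egr2 and Egr3 encode zinc finger transcription factors that act in positive selection, and Nab2 encodes a corepressor that Egr factors induce and that then holds them back. Nr4a1 (Nur77), Nr4a2 (Nurr1) and Nr4a3 (Nor1) encode orphan nuclear receptors, of which Nur77 and Nor1 are known for their part in the death of thymocytes at negative selection. Ier2, Ier3 and Ier5 are named as immediate early response genes, and their best known roles differ. Ier3 (IEX-1) is linked to survival and NF-kB signaling, and Ier5 to the heat shock factor HSF1.

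The promoters of the genes were read first, since the 3 Nr4a genes share letters there that the choice of the genes did not use. Sequences of the 250 bases before a transcription start came from a table of RefSeq starts on GRCm38.p6, in which 7 of the 10 genes were matched. The promoters of Egr1, Egr3 and Ier2 were not analysed here. The letters TGACG, the core of a cyclic AMP response element (CRE) that CREB and CREM bind, were searched on both strands, with overlapping matches counted. Each of the 3 Nr4a promoters held 4 of them. Of 32851 promoter windows of this length, 17.8% held at least 1 and 0.137% held at least 4. GC content was 74.4%, 80.0% and 63.6% in the Nr4a1, Nr4a2 and Nr4a3 windows, and the 32851 windows were not matched for it. The promoters of Ier3, Ier5 and Nab2 held 0. Egr2 had 5 listed starts, of which 3 overlapping windows shared 2 CRE cores around a CArG box, the site of serum response factor. A CArG box was found in 4 of the 5 Egr2 windows, in 0 of the other genes' windows and in 1.47% of all windows. In the 3 overlapping Egr2 windows it was the same box, so these are not separate matches. The full CRE, a longer motif than the core, was found in 1.55% of all windows. It was in 0 of the 11 windows of these genes, including the 3 Nr4a windows. The Ets site CCGGAAG, found in 6.91% of all windows, was also in 0 of the 11 windows. The Egr site GCGTGGG, found in 4.3%, was in the window of Nab2. A match of letters is a description and not a measured binding site. The windows of the 3 Nr4a genes and, for contrast, the first Egr2 window with both motifs are printed 5′ to 3′ along the gene, with the CRE cores and the CArG box in capitals.
Nr4a1 (chr15:101266596-101266845, plus strand): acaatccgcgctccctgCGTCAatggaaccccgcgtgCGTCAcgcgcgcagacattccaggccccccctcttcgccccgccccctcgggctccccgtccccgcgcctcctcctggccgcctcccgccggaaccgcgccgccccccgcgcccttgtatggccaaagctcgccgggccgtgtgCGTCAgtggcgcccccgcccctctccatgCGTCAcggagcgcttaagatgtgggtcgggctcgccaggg
Nr4a2 (chr2:57124004-57124253, minus strand): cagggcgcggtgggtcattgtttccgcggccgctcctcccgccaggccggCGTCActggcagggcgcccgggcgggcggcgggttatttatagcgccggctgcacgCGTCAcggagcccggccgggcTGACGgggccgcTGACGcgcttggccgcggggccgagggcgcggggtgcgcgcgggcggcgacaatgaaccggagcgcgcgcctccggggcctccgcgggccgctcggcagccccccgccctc
Nr4a3 (chr4:48045055-48045304, plus strand): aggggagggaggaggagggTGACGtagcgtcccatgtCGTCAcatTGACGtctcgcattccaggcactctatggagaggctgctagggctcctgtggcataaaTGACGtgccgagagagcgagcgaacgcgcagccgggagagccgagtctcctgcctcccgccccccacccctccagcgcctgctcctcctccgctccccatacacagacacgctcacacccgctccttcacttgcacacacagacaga
Egr2 (chr10:67537619-67537868, plus strand): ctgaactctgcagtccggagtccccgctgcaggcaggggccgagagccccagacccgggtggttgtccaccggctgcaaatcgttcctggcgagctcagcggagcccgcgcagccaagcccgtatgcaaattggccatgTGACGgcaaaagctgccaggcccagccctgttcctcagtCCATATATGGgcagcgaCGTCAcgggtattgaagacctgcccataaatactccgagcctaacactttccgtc

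**Figure D1:**
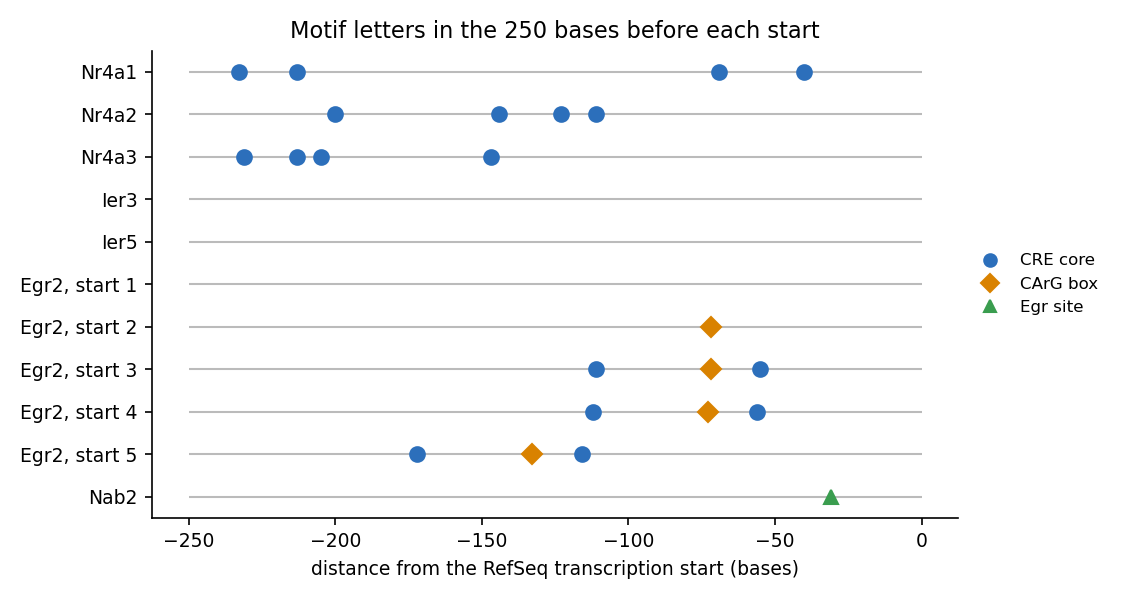
Positions of motif letters in the 250 bases before each listed RefSeq start, with distance from the start in bases on the x axis and 1 line per window. The 3 Nr4a windows hold 4 CRE cores each, the Egr2 windows hold a CArG box in 4 of 5 cases, and the Ier3 and Ier5 windows hold neither. In 3 of these Egr2 windows, which overlap, it is the same box.

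The libraries held 18963775 to 26252248 counts, and levels are given as CPM, the library-size scaled count from edgeR with TMM factors, in which a single count stood for 0.0388 to 0.0521 CPM. Control and cKO libraries lay on opposite sides of the first principal component, which held 39.2% of the variance. The counts are per gene and so do not measure the deleted exon. Paxbp1 stood at 40.1, 16.3 and 15.5 CPM in control libraries 1, 2 and 3, and at 38.8, 47.1 and 49.6 CPM in cKO libraries 1, 2 and 3 (log2 fold change 0.92 ± 0.33, S.E.; adjusted p = 0.0977 by edgeR). It was called higher in cKO with DESeq2 (adjusted p = 0.0226) and limma-voom (adjusted p = 0.0390), and without control library 1 in edgeR (log2 fold change 1.501, adjusted p = 0.00170). Paxbp1 thus did not check the genotype labels, and the groups are named by them. All 10 markers of DP thymocytes on a fixed list were tested and were detected in every library, with a summed level of 9369.8 to 11030.3 CPM in control and 6850 to 8155 CPM in cKO libraries. Of them, Cd8b1, Rag1 and Cd3e were lower in cKO by edgeR and none was higher, where 5.89% of all tested genes were lower. DESeq2 called 5 lower and limma-voom 4, again with none higher. All 10 had a log2 fold change below 0 in edgeR, with a median of -0.39. Without cKO library 3 edgeR called 0 of the 10, with 4 at an unadjusted p below 0.05, and without control library 2 or control library 1 it called 1 and 6.

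The Nr4a genes rose together in Paxbp1 cKO DP cells, by 3.08 to 5.06 times, and Ier2 and Ier3 rose with them, whereas Egr1, Egr2 and Nab2 did not pass the test. Across all 11488 tested genes, 4.47% were higher and 5.89% lower at an adjusted p below 0.05 (edgeR's quasi-likelihood test, Benjamini-Hochberg adjustment). Of the 9 tested genes here, 5 were higher and 0 lower, and 0 were lower at an unadjusted p below 0.05 or with DESeq2 or limma-voom. With a log2 fold change above 1 as well, 1.53% of all tested genes were higher and 1.23% lower, and the same 5 genes were higher. Ier2 passed this fold threshold narrowly, at 1.0055. The median log2 fold change was 1.01 over the 9 genes and -0.0017 over all tested genes. The cKO libraries lay above all control libraries for 4 of the 9 genes and below them for 0, against 15.7% and 17.3% of all tested genes (33% in either direction). In bulk RNA, more cells with a transcript and more transcript per cell cannot be told apart.

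**Figure D2:**
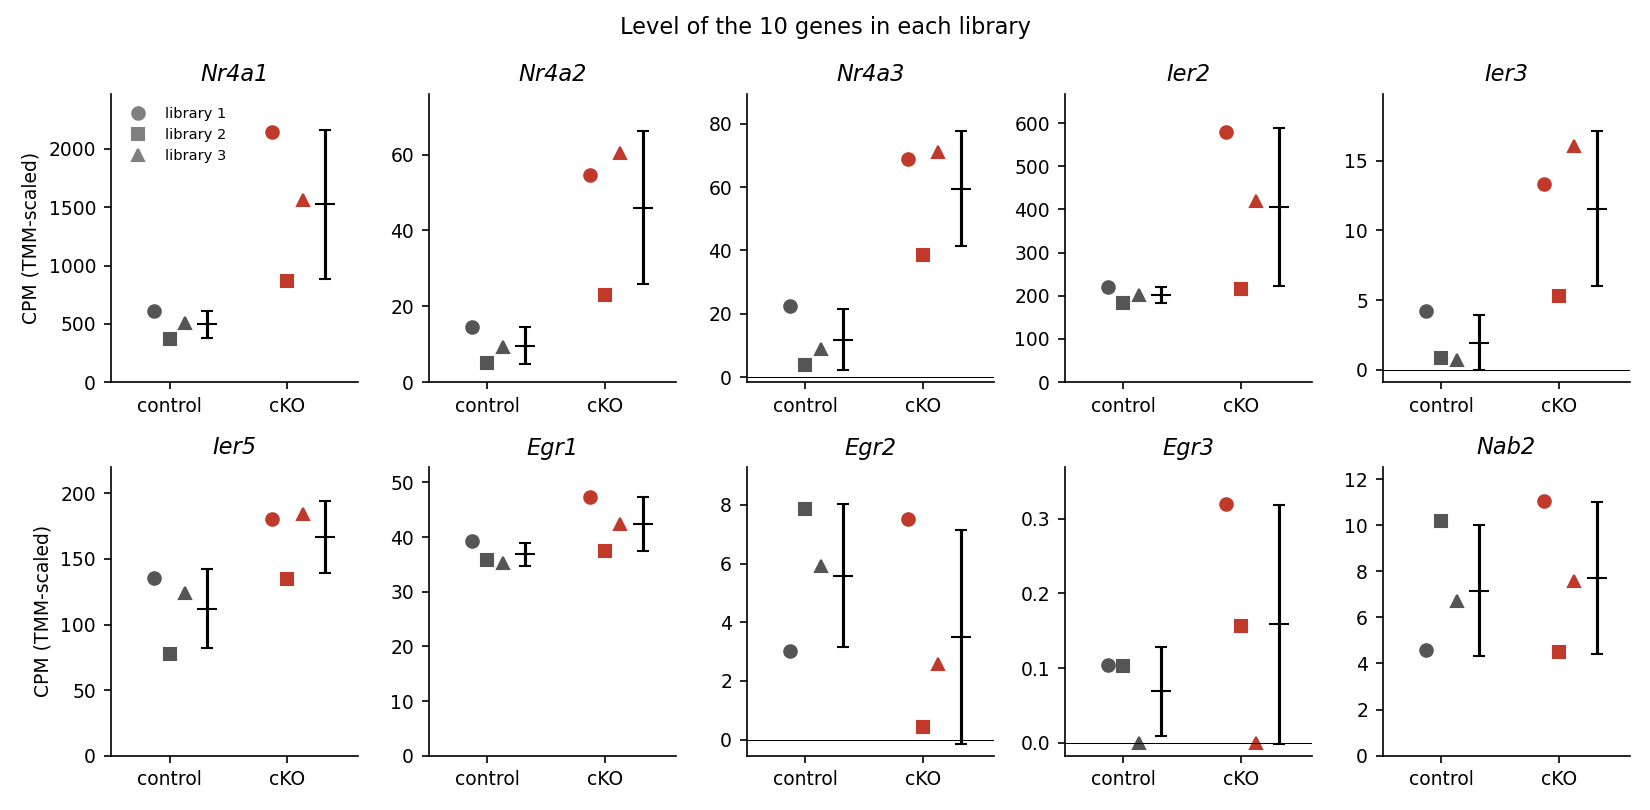
TMM-scaled CPM of each of the 10 genes in control (grey) and cKO (red) libraries, with symbols for libraries 1, 2 and 3 and black bars for the mean ± S.D. (n = 3). Every panel has its own scale from 0, and the cKO points clear all control points for Nr4a1, Nr4a2, Nr4a3 and Ier3.

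Nr4a1 (ENSMUSG00000023034, chromosome 15 from 101254269 to 101274795, GENCODE M21 on GRCm38) had the most counts of the 10 genes in every library. Its level was 607, 373 and 504 CPM in control libraries 1, 2 and 3, and 2141, 871 and 1559.7 CPM in cKO libraries 1, 2 and 3. The lowest cKO library lay above the highest control library. The mean rose from 495 ± 117 to 1524 ± 636 CPM (S.D. over the 3 libraries of a group, here and below), which in edgeR gave a log2 fold change of 1.62 ± 0.29 (S.E., here and below) and an adjusted p of 0.00930.

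Nr4a2 (ENSMUSG00000026826, chromosome 2 from 57106830 to 57124003) stood at 14.6, 5.04 and 9.28 CPM in the control libraries and at 54.6, 22.9 and 60.3 CPM in the cKO libraries, in the order 1, 2 and 3. The groups did not overlap, and the mean went from 9.65 ± 4.81 to 46.0 ± 20.2 CPM. In edgeR this was a log2 fold change of 2.25 ± 0.41 (adjusted p = 0.0105). Nr4a3 (ENSMUSG00000028341, chromosome 4 from 48045153 to 48086447) stood at 22.6, 3.96 and 8.89 CPM in the control libraries and at 68.7, 38.6 and 71.2 CPM in the cKO libraries. Its control libraries differed by 5.7 times between the highest and the lowest, and still none reached the lowest cKO library. The mean went from 11.8 ± 9.64 to 59.5 ± 18.2 CPM, a rise of 2.34 ± 0.50 on the log2 scale (adjusted p = 0.0183, edgeR).

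Per kilobase of gene, Nr4a1 made up nearly all of the family in every library. On the deposited FPKM scale it held 96.7%, 98.6% and 98.0% of the summed Nr4a level in control libraries 1, 2 and 3, and 96.9%, 96.3% and 95.3% in cKO libraries 1, 2 and 3. In counts, the ratio of Nr4a2 to Nr4a1 was 0.0135 to 0.0241 in control and 0.0255 to 0.0387 in cKO libraries, without overlap. The ratio of Nr4a3 to Nr4a1 overlapped, at 0.0106 to 0.0372 in control and 0.0321 to 0.0456 in cKO libraries.

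Among the Ier genes, Ier3 changed most and from the lowest level. Ier3 (ENSMUSG00000003541, chromosome 17 from 35821684 to 35822923) was counted 81, 17 and 19 times in the control libraries and 292, 102 and 348 times in the cKO libraries. In CPM these were 4.20, 0.874 and 0.738 against 13.3, 5.31 and 16.1. The groups were apart, although control library 1 lay close to cKO library 2. The rise was 2.59 ± 0.66 on the log2 scale (adjusted p = 0.0347, edgeR), and it was 2.19 to 3.84 when 1 library was left out in turn, the highest without control library 1.

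Ier2 (ENSMUSG00000053560, chromosome 8 from 84661331 to 84662852), whose product is a nuclear protein, was at 221, 184 and 201 CPM in the control libraries and at 579.6, 217 and 421 CPM in the cKO libraries. The cKO libraries 1 and 3 were far above the controls, while cKO library 2 lay within their range. The rise of 1.01 ± 0.28 on the log2 scale passed narrowly (adjusted p = 0.0454, edgeR). Ier5 (ENSMUSG00000056708, chromosome 1 from 155096361 to 155099636) was at 135, 77.7 and 124 CPM in the control libraries and at 180.5, 135 and 185 CPM in the cKO libraries. Control library 1 and cKO library 2 were level, and the log2 fold change of 0.57 did not pass (95% interval 0.12 to 1.02, edgeR adjusted p = 0.0966).

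The Egr genes and Nab2 gave no call in either direction. Egr1 (ENSMUSG00000038418, chromosome 18 from 34859823 to 34864984) was the steadiest of the 10, at 39.3, 35.8 and 35.3 CPM in the control libraries and 47.4, 37.4 and 42.4 CPM in the cKO libraries. The groups overlapped, and the log2 fold change of 0.20 had a 95% interval from -0.13 to 0.54 (edgeR adjusted p = 0.413). Egr2 (ENSMUSG00000037868, chromosome 10 from 67535475 to 67542188) was counted 58, 153 and 152 times in the control libraries and 165, 8 and 56 times in the cKO libraries. In CPM these were 3.01, 7.87 and 5.90 against 7.53, 0.417 and 2.59. The cKO libraries were 18.1 times apart and overlapped the controls, and the log2 fold change of -0.67 had an interval from -2.32 to 0.99 (edgeR adjusted p = 0.614). It was -1.89 without cKO library 1 (edgeR adjusted p = 0.178) and -0.15 without cKO library 2 (0.901).

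Egr3 (ENSMUSG00000033730, chromosome 14 from 70077203 to 70082614) was nearly absent, with counts of 2, 2 and 0 in control and of 7, 3 and 0 in cKO. A count of 0 allows up to 0.116 CPM in control library 3 and up to 0.138 CPM in cKO library 3 (3 counts, counting error only). A difference in Egr3 was not detectable at this depth. The related gene Egr4 was also under the filter, with counts of 7, 0 and 12 in control and of 18, 4 and 64 in cKO.

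Nab2 (ENSMUSG00000025402, chromosome 10 from 127660918 to 127668568) was counted 88, 198 and 173 times in the control libraries and 242, 86 and 164 times in the cKO libraries. The cKO range enclosed the control range, and the log2 fold change was 0.11 (95% interval -0.76 to 0.98, edgeR adjusted p = 0.893). Nab2 overlaps Stat6 by 40 nt, Gm16229 by 1646 nt and Nemp1 by 1668 nt on the other strand, and reads there cannot be told apart without strand, for which no setting is stated. Its relative Nab1 was at 29.5, 38.8 and 40.6 CPM in the control libraries and at 28.8, 24.1 and 26.5 CPM in the cKO libraries (log2 fold change -0.46, edgeR adjusted p = 0.117). The related gene Ier5l had 1 to 14 counts per library and was not tested.

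**Figure D3:**
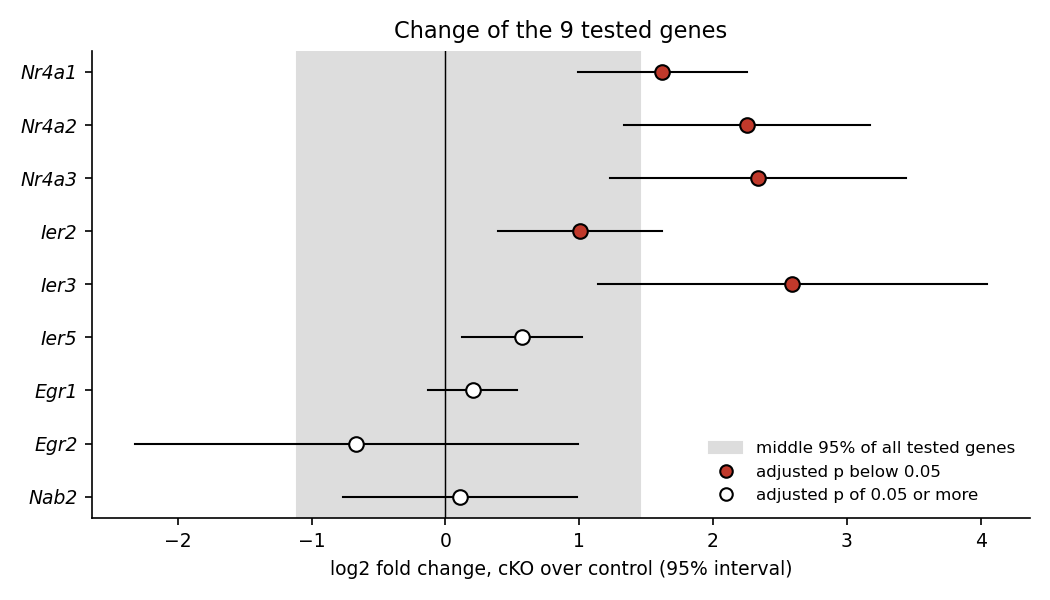
Log2 fold change of the 9 tested genes, cKO over control, with 95% intervals from edgeR. Filled points had an adjusted p below 0.05, and the grey band from -1.11 to 1.45 holds the middle 95% of all tested genes, which the points of the 3 Nr4a genes and Ier3 exceed.

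The order of the genes was compared per kilobase, on the deposited FPKM scale. In control libraries the mean level was highest for Nr4a1 (199.8 ± 49.5 FPKM), followed by Ier2 (132 ± 13.9), Ier5 (34.0 ± 9.48) and Egr1 (10.9 ± 0.963). Nab2, Nr4a2, Egr2, Nr4a3 and Ier3 followed with means of 3.22 to 1.72 FPKM, and each of these neighbours overlapped the next. In cKO libraries Nr4a1 (626 ± 261 FPKM) and Ier2 (268 ± 119.8) still led, now with overlapping libraries, and Ier5 (51.2 ± 8.19) came after them. Nr4a2 (13.8 ± 6.15), Egr1 (12.5 ± 1.35), Nr4a3 (10.5 ± 3.16) and Ier3 (10.3 ± 4.91) overlapped each other, above Nab2 (3.31 ± 1.37) and Egr2 (1.52 ± 1.63). Egr3 was last in both groups.

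To set the families against each other without any scaling between libraries, the counts of each gene were divided by those of Egr1 in the same library. These ratios were chosen after the values had been seen, and the 8 of them share the denominator. Nr4a1 had 15.4, 10.4 and 14.3 counts per Egr1 count in control libraries 1, 2 and 3, and 45.2, 23.3 and 36.8 in cKO libraries 1, 2 and 3. The log2 ratio was higher in cKO by 1.36 (standard error 0.33) for Nr4a1, by 2.06 (0.55) for Nr4a2 and by 2.43 (0.72) for Nr4a3. It was higher by 2.71 (standard error 0.86) for Ier3, by 0.70 (0.33) for Ier2 and by 0.40 (0.24) for Ier5. For these 6 genes the cKO ratios lay above all control ratios, as they did for 6.43% of 11487 tested genes divided by Egr1 in the same way (30.4% did not overlap in either direction), and the exact two-sided permutation p was 0.1 (adjusted over the 8 ratios, 0.133), where 0.1 is the smallest that 3 libraries against 3 can give. The gap was narrow for Ier2 (lowest cKO ratio 5.78, highest control ratio 5.68) and for Ier5 (3.60 and 3.5). The ratios of Egr2 and Nab2 to Egr1 overlapped between the groups, with exact permutation p of 0.2 and 0.8.

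**Figure D4:**
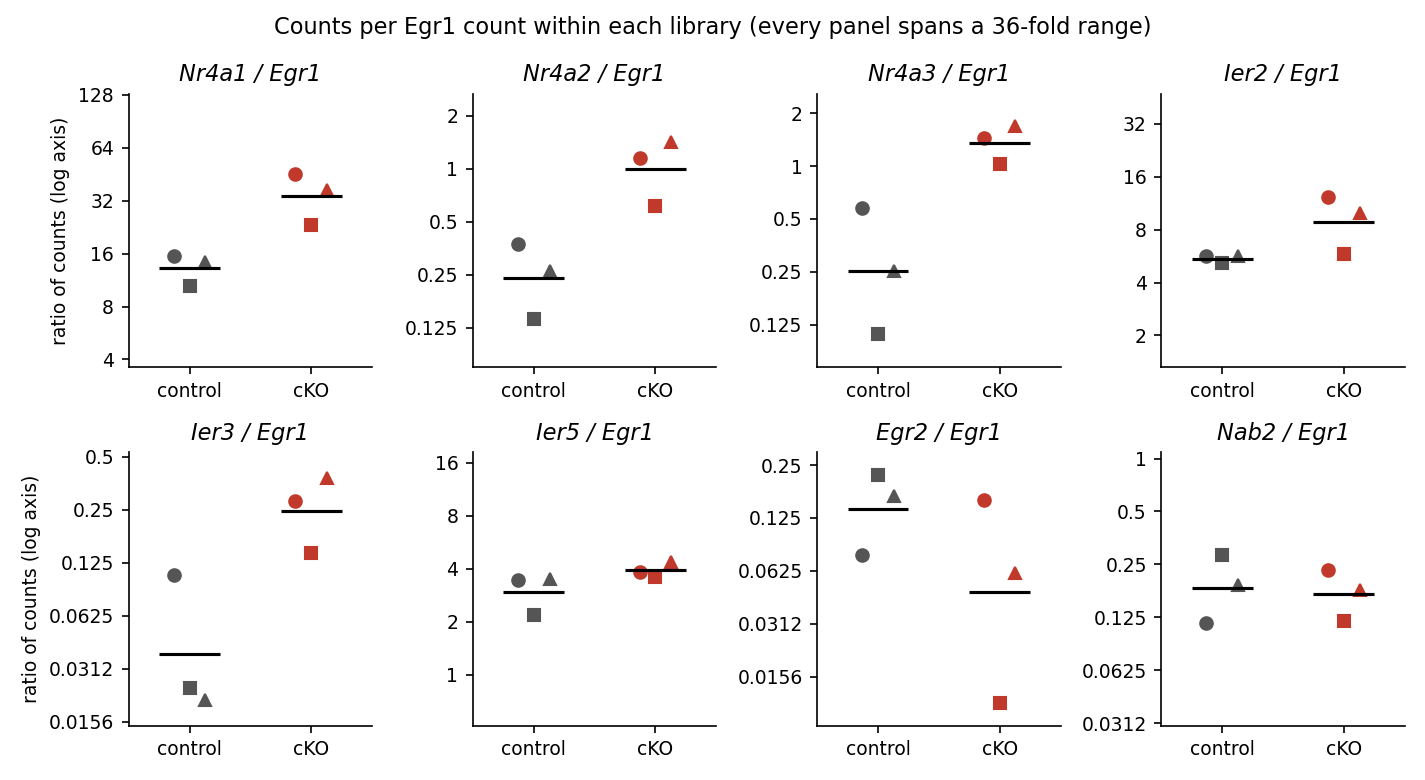
Counts of 8 genes per count of Egr1 within each library, on log axes that all span a 36-fold range, with a line at the geometric mean of each group. Control (grey) and cKO (red) libraries are apart for the Nr4a and Ier genes, though only narrowly for Ier2 and Ier5, and overlap for Egr2 and Nab2.

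Some libraries were high or low for many of these genes at once. In cKO library 2 all 9 tested genes were at their lowest among the cKO libraries. Control library 1 was the highest control library for 7 of the 9 genes, the exceptions being Egr2 and Nab2, and control library 2 was the lowest for 5. The spread between replicates, given as edgeR's biological coefficient of variation, was 0.142 for Egr1, 0.244 for Nr4a1, 0.526 for Ier3 and 0.630 for Egr2, against a common value of 0.228 over all tested genes. When 1 library was left out in turn, the fold changes of the Nr4a genes remained above 0 each time, at 1.30 to 1.90 for Nr4a1, 1.95 to 2.67 for Nr4a2 and 1.93 to 3.19 for Nr4a3 on the log2 scale. Nr4a1 and Nr4a2 lost the call only without cKO library 3 (edgeR adjusted p = 0.0547 and 0.0659), and Nr4a3 lost it without control library 3, cKO library 1 or cKO library 3 (0.0565, 0.0699 and 0.0884). Ier2 and Ier3 had no call without control library 2, control library 3, cKO library 1 or cKO library 3 (edgeR adjusted p between 0.0811 and 0.153). Without cKO library 3 edgeR thus called 0 of the 9 genes, with 5 at an unadjusted p below 0.05, and DESeq2 called 4 of them (Nr4a1, Nr4a2, Ier2 and Ier3). In that setting edgeR called 42 genes higher and 78 lower over the whole table, against 514 and 677 with all libraries. Ier5 passed without control library 1 (log2 fold change 0.72, edgeR adjusted p = 0.0372) and with DESeq2 (0.58, adjusted p = 0.0306), and Ier2 did not pass with limma-voom (0.90, adjusted p = 0.0601).

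More of the other early genes of TCR signaling were called higher than lower. Of 48 genes on a fixed list, 46 were tested, and 8 rose and 2 fell by edgeR (adjusted p below 0.05). Over all tested genes, 4.47% were higher and 5.89% lower at this threshold, so the 2 that fell did not exceed the share of all genes. The 46 genes had a median log2 fold change of 0.46, with 36 above 0 and 10 below. The list was written with earlier results of these data known. Atf3, among the 8 that rose, had 0, 4 and 9 counts in the control libraries. It passed the filter on low counts only through the cKO libraries, so only a rise could be called for it. Fosl2, which encodes a Fos partner of Jun proteins, rose from 5.61 ± 1.44 to 20.9 ± 4.15 CPM, by 1.90 on the log2 scale (adjusted p = 0.00473, edgeR). Junb, another AP-1 gene, rose from 649.8 ± 151 to 1479 ± 371 CPM (1.19 on the log2 scale, adjusted p = 0.00872, edgeR), and Trib1, a pseudokinase gene, rose from 129 ± 24.8 to 235 ± 40.4 CPM (0.87, adjusted p = 0.0142). Dusp6, the phosphatase that switches off ERK and is itself induced by ERK, fell from 173 ± 37.0 to 54.7 ± 24.2 CPM (-1.66 on the log2 scale, adjusted p = 0.00796, edgeR). Junb and Dusp6 lost the call without cKO library 3, and Trib1 also without control library 2 or cKO library 1. The count of 8 was 1 without cKO library 3, 2 without control library 2 or cKO library 1, 3 without control library 3 and 15 without control library 1.

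Of 9 genes known to be induced by Egr or Nr4a factors in T cells, 8 were tested, and edgeR called 2 higher and 1 lower. Over all tested genes, 10.4% were called in either direction. Id3, an inhibitor of E proteins that Egr1 induces at positive selection, fell from 329 ± 12.1 to 152 ± 16.8 CPM, a log2 difference of -1.11 ± 0.12 (adjusted p = 0.00349, edgeR). It kept the call when any of the 6 libraries was left out. Ikzf2, which encodes Helios, rose from 25.6 ± 4.85 to 45.7 ± 2.25 CPM (0.84 on the log2 scale, adjusted p = 0.0157, edgeR), and Bcl2l11, which encodes the death protein Bim, rose from 99.1 ± 41.3 to 246 ± 76.6 CPM (1.31, adjusted p = 0.0228). Both lost the call without control library 2 or cKO library 3, and Bcl2l11 also without control library 3 or cKO library 1.

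The genes upstream were read next. Of 14 tested genes for factors that switch on Egr, Nr4a and Ier genes, 1 was higher and 1 lower, where 10.4% of all tested genes were called in either direction. Crem, whose products bind CRE sites and include the inducible repressor ICER, stood at 22.3, 21.7 and 12.9 CPM in control libraries 1, 2 and 3 and at 48.8, 29.0 and 55.9 CPM in cKO libraries 1, 2 and 3 (1.24 on the log2 scale, adjusted p = 0.0216, edgeR). Elk3, a partner of serum response factor, fell from 34.5 ± 1.98 to 18.2 ± 4.61 CPM, a log2 difference of -0.92 (adjusted p = 0.0223, edgeR). Both lost the call without control library 2, control library 3, cKO library 1 or cKO library 3. Of 14 genes of the ERK pathway, 0 passed with edgeR, with 3 at an unadjusted p below 0.05, while DESeq2 called 1 lower and limma-voom 0. Rasgrp1, which activates Ras, stood at -0.21 on the log2 scale (adjusted p = 0.355, edgeR).

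**Figure D5:**
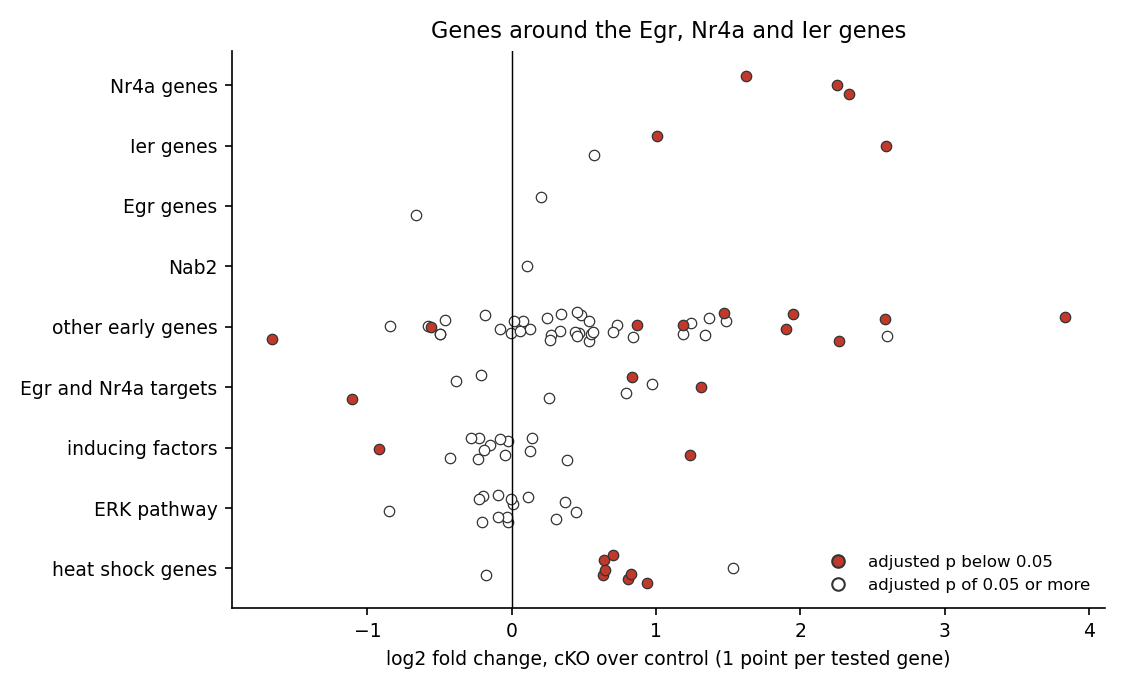
Log2 fold change of every tested gene in 9 groups, cKO over control, with 1 point per gene and filled points at an edgeR adjusted p below 0.05. The Nr4a points lie at 1.62 to 2.34, while the ERK pathway and the inducing factors spread around 0.

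Heat shock genes and cell type markers were also compared between the groups. Their part in the rise of the Nr4a and Ier genes was not tested. For the counts that follow, 4.47% of all tested genes were called higher and 5.89% lower by edgeR. The 9 tested heat shock genes encode chaperones and were listed as genes raised by handling or dissociation of cells. Of them, 7 were higher, among them Hspa8 (log2 fold change 0.81), Hspd1 (0.83), Hsph1 (0.94) and Hsp90ab1 (0.64, adjusted p between 0.00408 and 0.0113, edgeR). Their summed level was 4626 to 5364 CPM in control and 7416 to 8487 CPM in cKO libraries. Without cKO library 3, 3 of them were called. Of 14 macrophage markers, 9 were tested and 4 were higher (Adgre1, C1qb, C1qc and Cd68), against 1 of 10 tested without cKO library 3. Another 1 of the 9 went the other way, with its cKO libraries below all control libraries (unadjusted p below 0.05, edgeR). The summed level of the 14 was 19.1 to 45.7 CPM in control and 58.9 to 76.3 CPM in cKO libraries. Adgre1 had 0 counts in all control libraries and 42 to 52 in the cKO libraries. It passed the filter on low counts only through the cKO libraries, so only a rise could be called for it. Mertk and Vsig4 were at 0 in all 6 libraries. Of 7 natural killer cell markers, 2 were tested and 1 (Gzma) was higher, with sums of 33.9 to 73.7 CPM in control and 138 to 163 CPM in cKO libraries. Markers of mature SP cells summed to 1555 to 1949 CPM in control and 1277 to 1553 CPM in cKO libraries, and 0 of 7 tested passed with edgeR, DESeq2 or limma-voom, with 1 at an unadjusted p below 0.05 in edgeR. Of the DN and ISP markers, 2 of 6 tested were higher, with sums of 35.7 to 48.2 CPM in control and 69.8 to 109.8 CPM in cKO libraries. These were Il2ra and the Notch target Hes1, and without Hes1 the sums were 26.2 to 39.5 and 29.3 to 37.0 CPM, while the other 4 tested markers had log2 fold changes below 0. Markers of B cells summed to 40.9 to 45.9 CPM in control and 25.8 to 28.9 CPM in cKO libraries, nearly all of it from Cd79b, which was lower (-0.70 on the log2 scale, adjusted p = 0.0194, edgeR). Erythroid markers summed to 26.7 to 140.9 CPM in control and 0.685 to 48.4 CPM in cKO libraries, and the 5 tested stood at -0.41 to -1.55 on the log2 scale (adjusted p between 0.289 and 0.874, edgeR).

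Among the tested genes that are not members of the 10, those nearest to the mean profile of the 9 tested genes over the 6 libraries, each standardized, were Ykt6, Tnfrsf21, Ankrd13c, Dusp14 and Klf10, of which Klf10 is on the list of other early genes. Their root mean square distances were 0.0771 to 0.151 S.D. units, against 0.0899 for Ier2, 0.225 for Egr1, 0.232 for Nr4a1 and 1.21 for Egr2. In edgeR their adjusted p lay between 0.0734 and 0.540, and Tnfrsf21 and Klf10 passed with DESeq2 (0.0316 and 0.0153). With 11488 genes and 6 libraries some profiles lie this near without any link.

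The 10 genes had a median span of 6063 nt against 23271 nt over 11375 tested genes with a coding transcript in GENCODE M21. The Nr4a genes were the longest of them, at 20527 nt for Nr4a1, 17174 nt for Nr4a2 and 41295 nt for Nr4a3, while Ier2 and Ier3 spanned 1522 and 1240 nt. At most 3 exons were found in the longest coding transcript of 6 of the 10 genes and of 13.7% of tested genes. The genes that rose were on both sides of this divide, with 8 exons in each Nr4a gene, 1 in Ier2 and 2 in Ier3, while Egr1 and Egr2 have 2 and Ier5 has 1. The pentamer ATTTA, found in many short-lived transcripts, occurred 4.42 times per kilobase in Ier3, 0.84 to 1.18 times in the Nr4a transcripts and 0 times in Ier2, against a median of 0.82 over tested genes.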

How the data were processed

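RNA was extracted from DP thymocytes sorted by flow cytometry, cDNA was pre-amplified, and 6 libraries were sequenced on an Illumina HiSeq2500. The submitters' processing notes name fastp 0.18.0, Bowtie2 2.2.8, HISAT2, StringTie 1.3.1 and RSEM without roles, and the sources used here do not give the genome build. The authors deposited 1 table with read counts per gene and library, not normalized, and FPKM values scaled by the authors to gene length and depth. Its group mean FPKM, log2 ratio, p-value and FDR columns hold the authors' own comparison and were not used.

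Groups and replicate numbers came from the sample labels. The members and lists were chosen with earlier results of these data known. The counts went into edgeR 4.0.16 under R 4.3.3 (filterByExpr with a minimum count of 10 and total of 15, TMM, quasi-likelihood test, genotype as the only term, Benjamini-Hochberg adjustment over 11488 genes). Calls used an adjusted p below 0.05, with an absolute log2 fold change above 1 where stated. The deposited FPKM served only to compare levels between genes. No libraries of a group were duplicates (chi-square per degree of freedom 19.7 to 68.0). Scripts were tested on simulated counts. Named genes are the 10 members and their relatives, Paxbp1, up to 4 genes with the lowest p among those called in each list (the 2 most abundant where fewer than 2 were called), and the 5 nearest profiles. Any other gene was named after its values were seen, and 1 gene that the rule names is not reported here. Alternatives were RLE factors, library totals, no filter, a mean of at least 5 CPM, DESeq2 1.42.0, limma-voom (limma 3.58.1), a replicate block and leaving out each library. DESeq2 without cKO library 3 was added after the data were seen.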

Additional observations from a re-analysis of the deposited data

How the results depend on the processing

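The Nr4a genes and Ier3 were called under RLE factors, library totals, no filter, a mean of at least 5 CPM, DESeq2 and limma-voom, and Ier2 under these except limma-voom. Without a filter Ier2 stood at 0.996 on the log2 scale, below the fold threshold of 1. Leaving out 1 library in turn gave 0 to 6 of the 9 genes higher at an adjusted p below 0.05 and 0 to 5 with the fold threshold as well, while 0 were lower in every setting. Over all tested genes the leave-one-out counts ran from 42 to 1000 higher and 78 to 1030 lower, and with the fold threshold from 28 to 270 higher and 45 to 184 lower. The other early genes gave 1 to 15 higher and 0 to 3 lower. DESeq2 called 953 genes higher over the table and 15 higher and 4 lower among the other early genes, and without a filter 15 of these were higher. The cause of these shifts was not tested.

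Over all tested genes, same-numbered libraries did not deviate together, with correlations of 0.0474, 0.0367 and -0.0312 for numbers 1, 2 and 3. The number was therefore not taken as a pairing. Among the 9 tested genes here, however, library 2 was the lowest of the cKO group for 9 and of the control group for 5. With the replicate block, 6 genes were higher at an adjusted p below 0.05 (Ier5 gained the call, 0.60 with an adjusted p of 0.0215 in edgeR) and 4 with the fold threshold. Ier2 stood at 0.90 on the log2 scale there, below the fold threshold. The S.E. was smaller with the block for the Nr4a and Ier genes, as at 0.12 against 0.29 for Nr4a1 (edgeR). It was not smaller for Egr1, Egr2 or Nab2. The replicate block changed no other call at an adjusted p below 0.05 among the 10 genes. Over all genes it gave 570 higher and 668 lower.

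Of the genes that were recomputed under the alternatives and are reported here, Nab2 changed sign. It had a log2 fold change of -0.13 without control library 1 and -0.25 without cKO library 1, and 0.44 without control library 2. Depth limited Egr3, Egr4 and Ier5l, which were too low to test.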
